A study of Mus musculus with 2 samples.

Results

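CD8 T cells with late granzymes were the non-dividing CD8 T cells that held at least 10 UMIs (unique molecular identifiers, 1 per captured mRNA molecule) of Gzmd, Gzme, Gzmf and Gzmg together. Of 373 non-dividing CD8 T cells in 2 tumour libraries, 78 met this rule, and the other 295 are called the other CD8 T cells. The libraries held 14154 kept barcodes of 14615 deposited. The cells came from MC38 tumours, MC38 being a mouse colon carcinoma line. In the RSPO3-OE group the line overexpressed Rspo3, a secreted protein that strengthens Wnt signalling, and in the Ctrl group it was the control line. Both groups were tumours grown in C57BL/6 mice, called xenografts by the labels although line and host are the same species, and both were dissociated with a kit on ice before droplet capture and 3′ counting. Each group was 1 library. The labels used here give neither the number of mice nor the site or age of the tumours, so no value below has a replicate check, no test was made, and the intervals cover counting error only.

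A non-dividing CD8 T cell was a barcode with at least 200 genes and at most 20% mitochondrial UMIs. It held at least 2 UMIs of Cd3d, Cd3e and Cd3g together and at least 2 of Cd8a and Cd8b1. It held fewer than 5 UMIs of Lyz2, a myeloid lysozyme gene, no UMI of Hmga2, a gene of the tumour line, and fewer than 3 of the cell cycle genes Mki67 and Top2a. The RSPO3-OE library had 63 members among 248 such cells, 25.4% (exact binomial 95% interval 20.1 to 31.3). The Ctrl library had 15 among 125, 12% (6.87 to 19.0). The intervals did not overlap, but they hold no spread between tumours, and they did overlap when cells had to lack Lyz2 (20.3 to 32.4 and 7.04 to 21.0), when they had to lack Mki67 and Top2a (18.7 to 32.3 and 4.84 to 18.7) or when members needed 50 UMIs (7.97 to 16.4 and 0.879 to 7.99). Because the level of the 4 late granzymes chose the members, and every other gene was read from the same cells, all differences between members and other CD8 T cells are descriptions.

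Granzymes are serine proteases that cytotoxic lymphocytes store in granules and deliver, with the help of the pore protein perforin, into a target cell. In mice the Gzmb gene lies in a cluster that also holds Gzmc, Gzmd, Gzme, Gzmf, Gzmg and Gzmn. Gzmb is switched on early after a CD8 T cell is activated, whereas Gzmc to Gzmg are known from cultured T cells as late genes, seen after prolonged stimulation with interleukin 2. Humans have no genes called by these letters from D to G.

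The 4 genes of the rule lay on the minus strand of chromosome 14 in mm10 coordinates, within 93.8 kb from 56117626 to 56211417. From the Gzmb start site the order was Gzmb (56258838 to 56262260), Gzmc (56231441 to 56234656), Gzmf (56205263 to 56211417), Gzmn (56165797 to 56174599), Gzmg (56156582 to 56159579), Gzmd (56129556 to 56132608) and Gzme (56117626 to 56120625). Their promoters are shown because the 4 genes were counted as 1 quantity and are near copies. Each line gives the 250 bases before the RefSeq start site (build GRCm38.p6), 5′ to 3′ on the gene's own strand, and capitals mark the runs that Gzmd, Gzme, Gzmf and Gzmg share letter for letter. Gzmc is added as the nearest relative outside the rule, and only the 16-base run is in capitals there because only that one is intact.
Gzmd, chr14:56132594-56132843, minus strand: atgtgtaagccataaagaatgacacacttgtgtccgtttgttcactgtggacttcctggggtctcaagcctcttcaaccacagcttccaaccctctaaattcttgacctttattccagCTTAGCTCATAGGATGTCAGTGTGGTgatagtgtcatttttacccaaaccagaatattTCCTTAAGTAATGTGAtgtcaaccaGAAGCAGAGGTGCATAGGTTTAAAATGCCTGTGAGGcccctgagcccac
Gzme, chr14:56120626-56120875, minus strand: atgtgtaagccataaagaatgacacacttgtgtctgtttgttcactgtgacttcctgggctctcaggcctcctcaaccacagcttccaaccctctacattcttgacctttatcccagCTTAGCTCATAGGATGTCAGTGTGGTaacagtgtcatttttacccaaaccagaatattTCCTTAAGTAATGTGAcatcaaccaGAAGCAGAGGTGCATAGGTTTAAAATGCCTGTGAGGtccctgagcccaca
Gzmf, chr14:56211408-56211657, minus strand: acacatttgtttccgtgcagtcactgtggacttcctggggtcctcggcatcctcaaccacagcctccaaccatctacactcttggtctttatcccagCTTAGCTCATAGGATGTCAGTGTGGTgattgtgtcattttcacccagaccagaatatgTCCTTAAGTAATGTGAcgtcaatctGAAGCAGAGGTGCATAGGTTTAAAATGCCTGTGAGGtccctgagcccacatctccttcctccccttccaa
Gzmg, chr14:56159580-56159829, minus strand: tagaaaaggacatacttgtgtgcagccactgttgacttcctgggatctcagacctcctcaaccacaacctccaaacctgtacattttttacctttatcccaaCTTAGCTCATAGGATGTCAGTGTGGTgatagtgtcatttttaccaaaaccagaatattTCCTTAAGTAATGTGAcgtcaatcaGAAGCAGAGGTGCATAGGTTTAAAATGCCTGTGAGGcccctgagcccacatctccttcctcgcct
Gzmc, chr14:56234658-56234907, minus strand: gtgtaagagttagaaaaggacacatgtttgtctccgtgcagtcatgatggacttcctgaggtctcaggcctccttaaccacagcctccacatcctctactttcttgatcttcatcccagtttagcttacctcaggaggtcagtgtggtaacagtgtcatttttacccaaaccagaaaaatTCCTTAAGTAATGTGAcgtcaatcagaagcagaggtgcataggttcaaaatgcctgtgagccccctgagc

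The shared runs were 26, 16 and 36 bases long, and none was found in the 250 bases before Gzmb. Identity was counted over the bases that aligned, with gaps and unaligned ends left out. Gzmd and Gzme were 95.6% identical over 249 aligned bases. The other pairs of late granzymes were 89.5 to 91.0% identical over 228 to 240 bases. Gzmc was 86.0 to 88.8% identical to the 4 over 223 to 243 bases. The motifs were searched on both strands. The RUNX motif TGTGGT, which also ends the 26-base run, occurred 2 times in each of the late granzyme, Gzmc and Gzmb windows, and 14.05% of 32851 mouse promoters of the same length held it at least once. The cyclic AMP response motif TGACGTCA, which begins with the last letters of the 16-base run, was found in the Gzmf, Gzmg and Gzmc windows and in 1.55% of promoters. The AP-1 motif TGANTCA was found in the Gzmb window and in none of the other windows, against 6.75% of promoters. The T-box motif AGGTGTGA (1.12% of promoters), the STAT motif TTCNNNGAA (7.02%) and the GATA motif AGATAA (9.99%) were in none of these windows. These are matches of letters and not measured binding. Transcripts of the late granzymes were 88.9 to 95% identical, counted in the same way. Yet none of the 211 windows of 90 bases within the last 300 bases of each late granzyme occurred in another granzyme of the cluster. The deposited counts were therefore read gene by gene, although the labels do not say how reads with mismatches were assigned.

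The members carried the defining genes of CD8 T cells. Trac, the constant segment of the alpha chain of the T cell receptor and not part of the rule, had a UMI in 61 of 63 RSPO3-OE and 14 of 15 Ctrl members, at 564 and 733 CPM (UMIs of a gene per 1000000 UMIs summed over the cells). Trdc, the delta chain constant segment, was at 0 in both. The gamma delta list summed to 207 and 459 CPM in members, close to 227 and 441 CPM in the other CD8 T cells, and most of it was Tcrg-C2, a gamma chain constant segment. Tcrg-C2 had a UMI in 27 of 63 and 10 of 15 members, at 154 and 346 CPM, and CD8 T cells with an alpha beta receptor can carry gamma chain transcripts. Cd4 had 5 and 4 UMIs in all members of RSPO3-OE and Ctrl, and Foxp3, the regulatory T cell factor, had 4 and 0. Lyz2 had 6 and 2, but the gate itself allowed fewer than 5 per cell. By Trac, Trdc, Cd4 and Foxp3 the label held. A variable segment of the beta chain had a UMI in 5 of 63 and 3 of 15 members, with 4 and 2 different leading segments, too few to describe clones from 3′ reads.

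Depth differed between members and the other CD8 T cells. The median member held 8049 UMIs in RSPO3-OE (lowest 2710, highest 22675) and 8424 in Ctrl (2998 to 12986), against 5812 and 6208.5 in the other CD8 T cells. Summed over cells, the members held 565272 and 124169 UMIs, so a gene without a UMI in the Ctrl members could still be present at up to 24.2 CPM, the level of 3 counts. Levels are CPM of summed UMIs. As a 3′ count gives 1 end per molecule, levels were not scaled to transcript length. The libraries shared 7 barcodes, none of them a member. Scrublet marked 184 (2.57%) and 127 (1.82%) of kept barcodes as doublets, none of them a member.

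Members differed widely among themselves in late granzyme UMIs. In RSPO3-OE the lowest member held 10, the median 41 and the highest 920, while in Ctrl the lowest held 10, the median 24 and the highest 149. The 5 highest cells held 46.8% of the members' late granzyme UMIs in RSPO3-OE and 71.8% in Ctrl, so summed levels lean on few cells in both. As a share of a cell's own UMIs, the late granzymes made up a median of 0.562% in RSPO3-OE, with a highest value of 5.31%. In Ctrl the median was 0.278% and the highest 1.75%. At the edge of the rule, 10 RSPO3-OE and 4 Ctrl members held 10 to 14 UMIs, and 13 and 6 of the other CD8 T cells held 5 to 9.

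**Figure D1:**
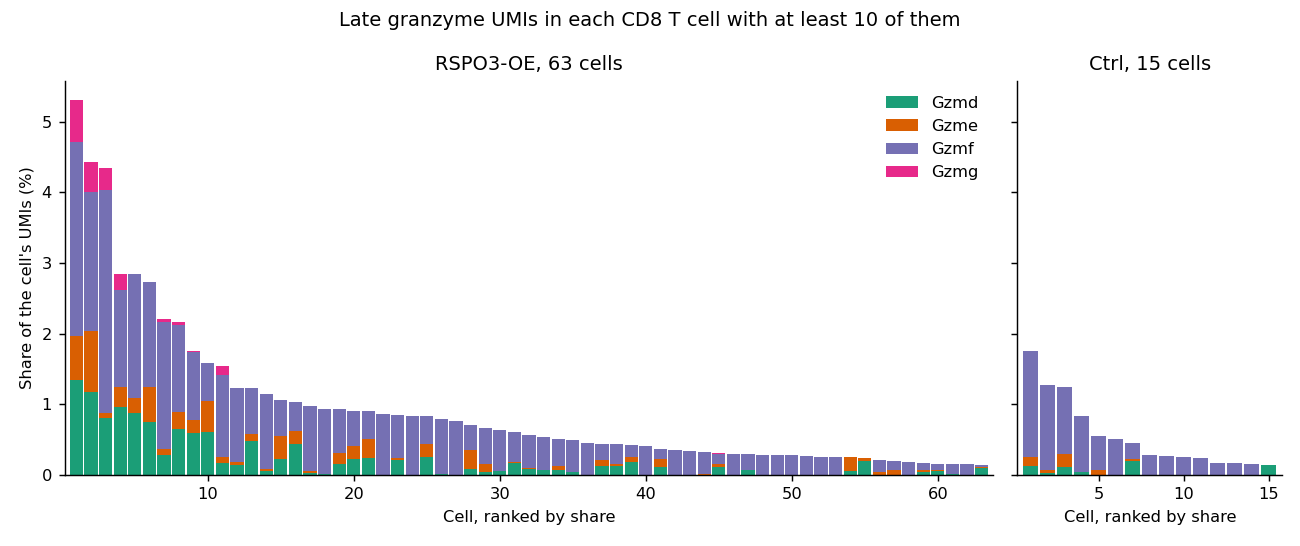
Share of each member's UMIs (percent, vertical axis) that came from Gzmd, Gzme, Gzmf and Gzmg, stacked by gene, with cells ranked along the horizontal axis; 63 RSPO3-OE and 15 Ctrl cells. Gzmf makes up most of the bar in most cells, the highest RSPO3-OE cell reaches 5.31%, and the highest Ctrl cell 1.75%.

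Gzmf was the main late granzyme of the members. It was the leading gene of the 4 in 57 of 63 RSPO3-OE and 14 of 15 Ctrl members and supplied 61.7% and 86.1% of their late granzyme UMIs. Its UMIs per member ran from 0 through a median of 31 to 602 in RSPO3-OE and from 0 through 22 to 128 in Ctrl. Its level was 7322 CPM (exact Poisson 95% interval 7101 to 7549) and 4776 CPM (4399 to 5176).

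Gzmd and Gzme followed. Gzmd was seen in 44 of 63 RSPO3-OE members, with a median of 5 and a highest value of 243 UMIs, and in 6 of 15 Ctrl members, with a median of 0 and a highest value of 15. That gave 2701 CPM (2568 to 2840) and 419 CPM (313 to 549). Gzme was seen in 40 of 63 and 5 of 15 members, at 1352 CPM (1257 to 1451) and 354 CPM (257 to 476), with highest values of 178 and 22 UMIs. In Ctrl both genes thus came from few cells, and 1 cell held 50% of the Gzme UMIs.

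Gzmg was the rarest of the 4. In RSPO3-OE it had 280 UMIs in 9 of 63 members, with 90 in the highest cell, a level of 495 CPM (439 to 557). It had no UMI in the 15 Ctrl members, which allows up to 24.2 CPM, and none in the other CD8 T cells of either library. All 4 genes were present in 9 RSPO3-OE members, 3 of them in 26, 2 in 12 and 1 in 16. Among Ctrl members, no cell held all 4, and 4, 2 and 9 cells held 3, 2 and 1 of the genes.

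The level of 1 late granzyme went with that of another to different degrees among RSPO3-OE members. Over the 63 cells, which share a library and differ in depth, Spearman's rho of CPM was 0.84 for Gzmd with Gzme, 0.47 for Gzmd with Gzmf and 0.32 for Gzme with Gzmf. Gzmb correlated with Gzmf at 0.48 and with Gzmd at 0.18. Gzmd and Gzme, which had the highest coefficient, are adjacent genes with the most similar transcripts. These coefficients describe cells and carry no test.

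**Figure D2:**
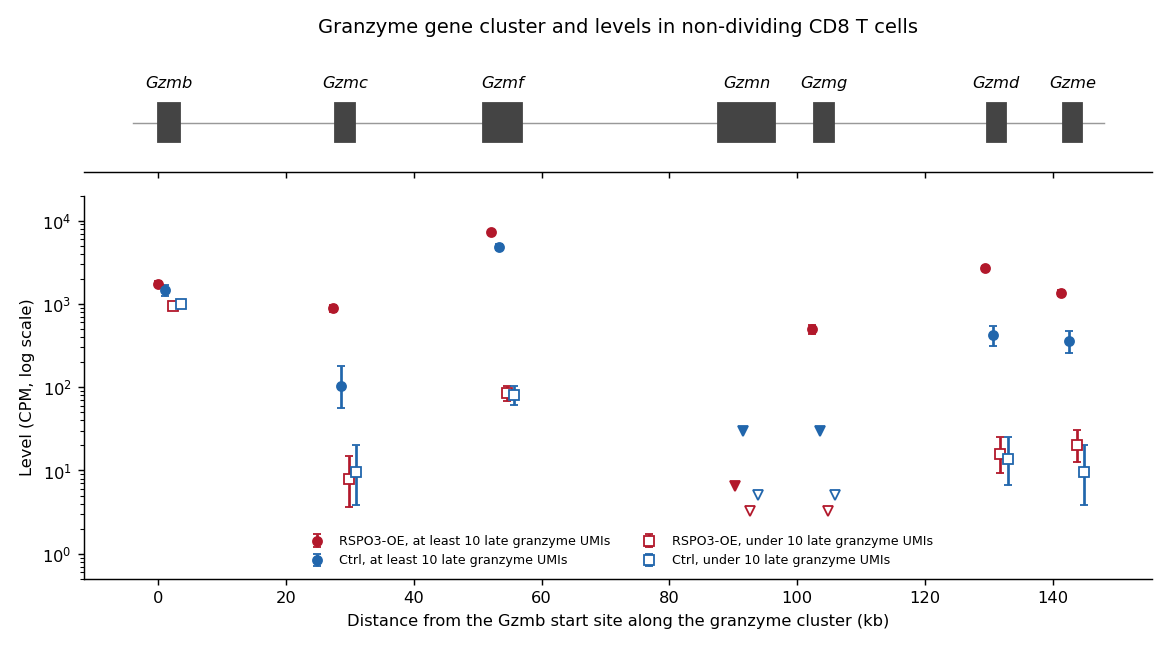
Levels of the chromosome 14 granzymes (CPM, log axis) against distance in kb from the Gzmb start site, with gene boxes to scale; filled points are members, open points the other CD8 T cells, bars the exact Poisson 95% intervals and triangles the upper limit where no UMI was counted. Gzmb, at the near end, is higher in members by less than 2-fold in both libraries. Gzmc and the late granzymes differ by more than an order of magnitude in RSPO3-OE, and Gzmn has no UMI in members.

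Most late granzyme UMIs outside the members were in cells of related kinds. Of all late granzyme UMIs in kept barcodes, 13435 in RSPO3-OE and 3473 in Ctrl, members held 49.9% and 19.8%, and all CD8 T cells, dividing ones included, 77.1% and 53.7%. Among dividing CD8 T cells, 26 of 79 in RSPO3-OE (32.9%, 22.7 to 44.4) and 7 of 36 in Ctrl (19.4%, 8.19 to 36.0) held at least 10 late granzyme UMIs. Barcodes with at least 2 UMIs of the NK receptors Ncr1 and Klrb1c and none of Cd3 also held them. Their level was 5794 CPM over 35 RSPO3-OE cells and 1519 CPM over 17 Ctrl cells. In RSPO3-OE Gzmd was higher there than in members, 2862 against 2701 CPM, and the other late granzymes were lower. In Ctrl Gzmf was lower there than in members, 144 against 4776 CPM, and the other late granzymes were higher, with Gzmd at 980 against 419 CPM. The members stood at 11870 and 5549 CPM, a sum of the genes that chose them. In the other CD8 T cells, which the rule held under 10 UMIs each, the summed level was 120 and 104 CPM. The order of these levels was set by the rule. The barcodes with NK receptor UMIs were not chosen by late granzymes. Of them 7 of 35 and 5 of 17 held at least 10 late granzyme UMIs.

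Cells that should lack these genes set the background of free RNA. In cells with Hmga2 and no Cd3 or Ptprc UMIs, the tumour cells, the late granzyme sum was 1.75 CPM for RSPO3-OE and 0.276 CPM for Ctrl. At least 1 UMI was seen in 4.60% and 0.678% of those cells, whose median depth of 25447 and 21439 UMIs was above that of the members. Myeloid cells stood at 3.94 and 1.55 CPM. The level in the other CD8 T cells was thus above these backgrounds in both libraries.

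Beside the genes of the rule, members were compared with the other CD8 T cells of the same library as a log2 ratio of CPM with an exact binomial 95% counting interval. Among genes with at least 20 UMIs, 2.39% of 6439 genes in RSPO3-OE were at least 2-fold higher in members and 5.19% at least 2-fold lower. In Ctrl the shares were 3.63% and 10.6% of 4432 genes. The median log2 ratio of all genes was -0.04 and -0.07. At least 2-fold higher in both libraries were 11 genes, 0.25% of 4403, and 34 (0.772%) were at least 2-fold lower in both. The higher ones were Gzmd, Gzme and Gzmf of the rule, and Gzmc, Spp1, Fcer1g, Ifitm1, Rpap2, Gng11, Endod1 and Epdr1.

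Gzmc, the copy next to Gzmf, was the gene outside the rule with the highest ratio. In RSPO3-OE its level was 883 CPM in members and 7.88 CPM in the other CD8 T cells, a log2 ratio of 6.81 (5.87 to 7.94). It was seen in 34 of 63 members, with a median of 1 and a highest value of 152 UMIs. In Ctrl the levels were 105 and 9.68 CPM, a log2 ratio of 3.43 (2.0 to 5.0), and 77% of the members' 13 UMIs were in 1 cell. Gzmc therefore stood with the late granzymes in RSPO3-OE, while in Ctrl its level rested on 3 of 15 cells.

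The early granule genes differed by less. Gzmb encodes granzyme B, and Prf1 the pore protein perforin. Gzmb per cell had a lowest value of 0, a median of 12 and a highest of 100 UMIs in RSPO3-OE members, and 1, 8 and 43 in Ctrl members. Its level was 1753 CPM in members and 937 CPM in the other CD8 T cells of RSPO3-OE, a log2 ratio of 0.90 (0.78 to 1.03). Those of Ctrl were 1466 and 1006 CPM, a log2 ratio of 0.54 (0.30 to 0.78). Thus Gzmb was present in nearly all members and in most of the other CD8 T cells, with a UMI in 60 of 63 against 141 of 185 cells in RSPO3-OE. Prf1 had at least 1 UMI in every member of both libraries and medians of 10 and 7. Its log2 ratio was 1.27 (1.13 to 1.41) in RSPO3-OE, from 1659 against 689 CPM. In Ctrl it was 0.92 (0.64 to 1.19), from 1176 against 621 CPM.

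Granzymes encoded elsewhere were absent or rare. Gzma, on chromosome 13, had no UMI in any member, and 98% of the 49 UMIs in the other CD8 T cells of RSPO3-OE were in 1 cell. Gzmk, on the same chromosome, had 17 and 4 UMIs in the members, and Gzmm, on chromosome 10, had 1 and 0. Among 14 measured other granule genes the median log2 ratio was -0.06 in RSPO3-OE and 0.10 in Ctrl, with Gzmc and Prf1 at least 2-fold higher in RSPO3-OE and Gzma and Lamp1 at least 2-fold lower. Lamp1, a lysosome membrane gene, was at -1.08 (-1.82 to -0.40) in RSPO3-OE and had a Ctrl ratio of 0.59 (-0.37 to 1.46). Nkg7, a granule membrane gene, was at -0.07 (-0.16 to 0.02) and 0.05 (-0.11 to 0.21). Srgn, the granule proteoglycan serglycin, was at 0.10 (-0.04 to 0.24) and 0.32 (0.07 to 0.56).

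Serpinb9b, a serpin gene on chromosome 13 (33027416 to 33041884) from the family of granzyme inhibitors, had been named as a marker of these cells from earlier results of these data. In RSPO3-OE members its UMIs ran from 0 through a median of 2 to 59. Its level there was 617 against 109 CPM, a log2 ratio of 2.51 (2.21 to 2.81). In Ctrl members the median was 0 and the highest value 8 UMIs, and the levels of 161 against 87.2 CPM gave a log2 ratio of 0.89 (0.08 to 1.63), which turned to -0.30 with thinned cells. With every cell thinned to 2000 UMIs, Serpinb9b had a UMI in 46.0% of members and 11.5% of the other CD8 T cells in RSPO3-OE (unthinned 38 of 63 and 31 of 185 cells), but in 13.3% and 10.0% in Ctrl (6 of 15 and 17 of 110). The marker therefore separated members in RSPO3-OE and hardly did so in Ctrl at equal depth. Of the 6 granzyme inhibitor genes, 3 in RSPO3-OE and 6 in Ctrl were above 0, against 46.1% and 43.8% of all genes. Serpinb9b was the one past 2-fold, in RSPO3-OE. Serpinb9, which encodes the granzyme B inhibitor, was at -0.05 (-0.31 to 0.22) and 0.94 (0.29 to 1.55).

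**Figure D3:**
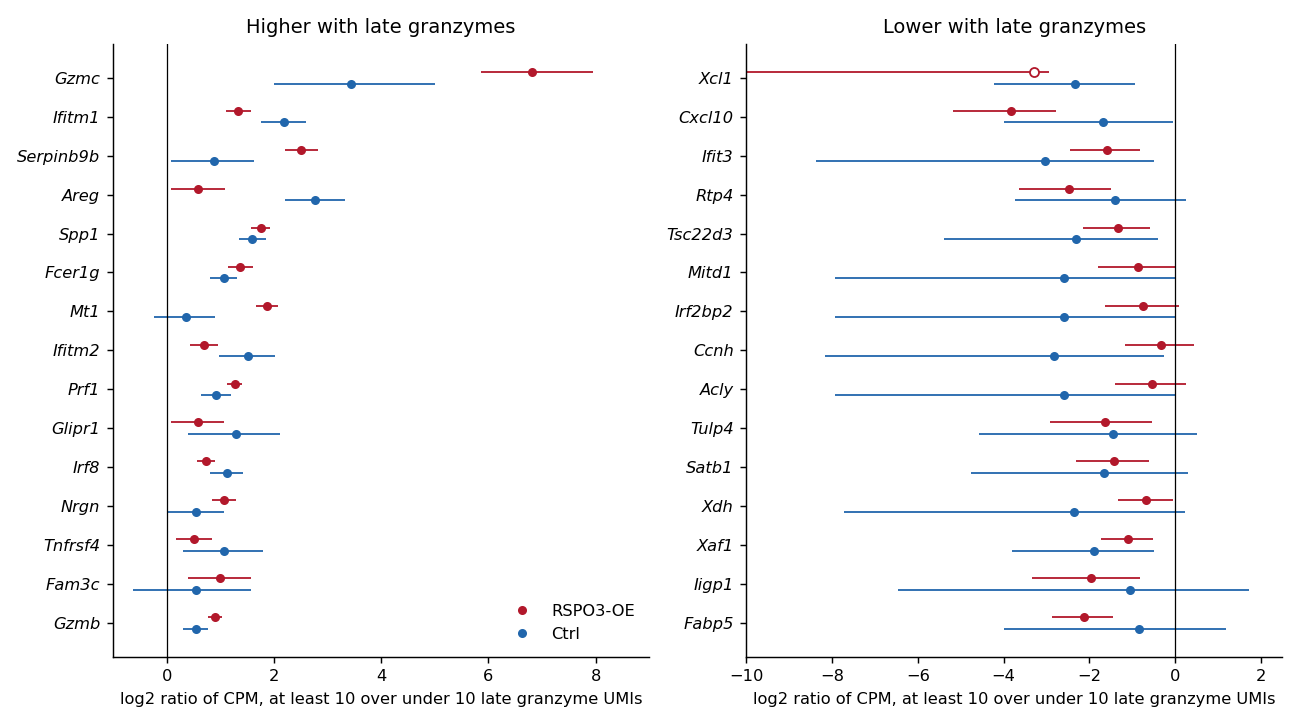
Log2 ratio of CPM, members over other CD8 T cells of the same library (horizontal axis, cut at the left edge), for the named genes. The genes of the rule are not shown. Points are RSPO3-OE and Ctrl, bars the 95% counting intervals, and an open circle a bound where members held no UMI. Gzmc lies far to the right in RSPO3-OE, while most lower genes have wide Ctrl intervals.

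Several genes that are more often described in myeloid or NK cells were higher in members of both libraries. Spp1, which encodes the secreted protein osteopontin, had a median of 4 UMIs per member in each library and highest values of 160 and 45. Its level was 1330 against 395 CPM in RSPO3-OE, a log2 ratio of 1.75 (1.58 to 1.92). The Ctrl levels were 1659 against 548 CPM, a log2 ratio of 1.60 (1.35 to 1.85). Spp1 was seen in 51 of 63 RSPO3-OE and 13 of 15 Ctrl members, against 88 of 185 and 56 of 110 of the other CD8 T cells. Fcer1g, the signalling chain of Fc and NK receptors, was at 605 against 233 CPM in RSPO3-OE, a log2 ratio of 1.38 (1.14 to 1.61). Its Ctrl levels were 1417 against 677 CPM, a ratio of 1.07 (0.81 to 1.32). Irf8, an interferon regulatory factor also induced in activated T cells, was at 0.73 (0.56 to 0.91) and 1.13 (0.82 to 1.43), with a UMI in 57 of 63 and 15 of 15 members.

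Markers of other cell types were counted beside these genes. The 6 neutrophil markers had 2 UMIs in RSPO3-OE members and 0 in Ctrl members. The 13 macrophage and monocyte markers summed, in RSPO3-OE, to 727 CPM in members and 1217 CPM in the other CD8 T cells. The Ctrl sums were 983 and 764 CPM. In members most of that sum was Ly6c2, which CD8 T cells also express, at 504 and 765 CPM. Cd68 and Fcgr3 had no UMI in members of either library, Csf1r none in RSPO3-OE, and Adgre1 and Ms4a7 none in Ctrl. Others were present. Ctss had a UMI in 35 of 63 and 5 of 15 members, at 92.0 and 80.5 CPM, against 152 and 119 CPM in the other CD8 T cells. Apoe had one in 22 and 5 members, at 51.3 and 48.3 CPM, against 71.8 and 120 CPM. C1qa, C1qb, C1qc and Cd14 also had UMIs in members of both libraries. For the 8 NK cell markers the sums were 216 and 201 CPM, and 225 and 248 CPM in Ctrl, with Ncr1, Klra4, Klra8 and Gzma at 0 in members of both libraries. Most of the members' sum was Txk, at 168 against 114 CPM in RSPO3-OE and 169 against 167 CPM in Ctrl. Klrb1c was at 26.5 against 10.5 CPM and 40.3 against 34.6 CPM. Of the 4 NK markers measured in RSPO3-OE, 2 were above 0 and 2 below. For the 10 tumour cell markers the sums were 47.8 and 53.4 CPM, and 32.2 and 196 CPM in Ctrl. Of the macrophage and monocyte, NK and tumour sums, those higher in members were the first in Ctrl and, slightly, the second in RSPO3-OE. The neutrophil sum was 3.54 against 2.63 CPM in RSPO3-OE. The 7 mast cell and basophil markers had 14 against 15 UMIs in RSPO3-OE, 24.8 against 13.1 CPM, and 2 against 0 UMIs in Ctrl. B and plasma cell markers had 2 against 0 UMIs in RSPO3-OE and 0 against 1 in Ctrl. Dendritic sums were lower in members, at 127 against 348 CPM and 48.3 against 83.0 CPM. The part of any of these lists in the Spp1 and Fcer1g values was not tested.

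Other genes with a high mean ratio of the 2 libraries leaned on 1 library or on few cells. Ifitm1, an interferon-induced membrane gene, was at 1.33 (1.10 to 1.56) and 2.18 (1.77 to 2.60), with a UMI in 27 of 63 and 6 of 15 members. Its relative Ifitm2 was at 0.70 (0.44 to 0.95) and 1.51 (0.98 to 2.03). Mt1, a metal-binding metallothionein, was at 1.87 (1.67 to 2.07) in RSPO3-OE, while its Ctrl ratio was 0.36 (-0.23 to 0.91). Areg, the growth factor amphiregulin, was at 0.59 (0.08 to 1.08) and 2.77 (2.22 to 3.32) but was seen in 8 and 5 members, with 47.5% and 46.8% of its UMIs in 1 cell. Tnfrsf4, the costimulatory receptor OX40, was at 0.50 (0.17 to 0.84) and 1.07 (0.30 to 1.79). Glipr1 (0.58 and 1.29), Nrgn (1.07 and 0.55) and Fam3c (0.99 and 0.54) completed the 15 genes, and the Ctrl intervals of Nrgn and Fam3c reached below 0.

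Interferon response genes were lower in members. Of the 14 measured in RSPO3-OE, 13 were below 0, 10 of them at least 2-fold, and 12 intervals lay below 0. Over all genes 53.9% were below 0 and 7.61% of intervals lay below 0. Gbp5 and Oasl2, with no UMI in members, had too few UMIs to be counted. The median log2 ratio was -1.26, beside -0.04 for all genes. In Ctrl 10 of 11 were below 0 with a median of -0.78, beside -0.07 for all genes, 3 were at least 2-fold lower, and 2 intervals lay below 0, against 56.2% of all genes below 0 and 3.25% of intervals. The summed level was 784 against 1683 CPM in RSPO3-OE (log2 ratio -1.10, interval -1.25 to -0.95). In Ctrl it was 854 against 1187 CPM (-0.48, -0.78 to -0.18).

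Single interferon-induced genes showed the range. Cxcl10, a chemokine gene outside the list, was at 12.4 against 177 CPM in RSPO3-OE, a log2 ratio of -3.84 (-5.17 to -2.77), although 50.5% of the UMIs in the other CD8 T cells were in 1 cell. Ifit3, an antiviral gene, was at -1.60 (-2.46 to -0.83) in RSPO3-OE and, from 1 UMI in the members, at -3.04 (-8.38 to -0.50) in Ctrl. Bst2, which tethers budding viruses, was at -1.30 (-1.67 to -0.95) in RSPO3-OE, with a Ctrl ratio of -0.12 (-0.72 to 0.43). Ifitm1 and Ifitm2, also outside the list, were on the other side of 0. Rtp4 (-2.47 and -1.40), Xaf1 (-1.11 and -1.90) and Iigp1 (-1.96 and -1.04), of which Iigp1 is on the list, belonged to the 15 lowest genes.

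Most of the few measured genes of resting or stem-like T cells and several surface receptors were also lower. Satb1, a chromatin organiser of T cells, was at -1.42 (-2.32 to -0.61) and -1.67 (-4.77 to 0.29), and Tsc22d3, a glucocorticoid-induced gene, at -1.32 (-2.14 to -0.58) and -2.32 (-5.40 to -0.40). Bcl2, which protects from cell death, was at 182 against 337 CPM in RSPO3-OE, a log2 ratio of -0.89 (-1.22 to -0.57). In Ctrl it was at 379 against 602 CPM, a ratio of -0.67 (-1.14 to -0.23). Cd69, an early activation and residence receptor, was at -1.12 (-1.64 to -0.64) and -1.43 (-2.46 to -0.56). Cd160 was at -1.09 (-1.73 to -0.48) and -1.25 (-2.91 to 0.05), and Cd7 at -1.40 (-2.95 to -0.12) and -3.73 (-9.05 to -1.20), the latter from 1 UMI in the members. Of the 14 naive and stem-like genes on the list, 6 in RSPO3-OE and 9 in Ctrl had no UMI in members. Among them Tcf7, Lef1, Slamf6 and S1pr1 had 8, 6, 8 and 4 UMIs in the other CD8 T cells of RSPO3-OE. These were too few to be counted, so the list does not describe those genes. Of the 6 naive and stem-like genes measured in RSPO3-OE, 5 were below 0, with a median of -0.55, and Il7r was at 0.52 (0.05 to 0.98). All 5 measured in Ctrl were below 0, with a median of -1.41, with Klf2 of that library at its bound. Over all genes 53.9% were below 0 in RSPO3-OE and 56.2% in Ctrl.

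Chemokine genes were uneven. Xcl1, a chemokine that attracts dendritic cells, had no UMI in RSPO3-OE members against 59 in the other CD8 T cells. With the members' sum set to 3 counts it was 9.74-fold lower. In Ctrl it was at -2.33 (-4.23 to -0.93), with all 4 UMIs of the members in 1 cell and 70.1% of the others' UMIs in 1 cell. Ccl5 was at 3586 against 4869 CPM in RSPO3-OE, a log2 ratio of -0.44 (-0.52 to -0.37). In Ctrl it was at 1885 against 3688 CPM, a ratio of -0.97 (-1.17 to -0.78). Ccl4 was at -0.72 (-0.88 to -0.57) and -1.32 (-1.75 to -0.91). Ifng, the gene of interferon gamma, was at -0.02 (-0.25 to 0.22) and 0.15 (-0.43 to 0.68). Of the measured cytokine and chemokine genes 8 of 11 were below 0 in RSPO3-OE and 6 of 10 in Ctrl, with medians of -0.44 and -0.68. Over all genes 53.9% and 56.2% were below 0, so the Ctrl count was near the share of all genes.

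The rest of the 15 lowest genes rested on few UMIs. Mitd1 (-0.86 and -2.59), Irf2bp2 (-0.74 and -2.59), Ccnh (-0.34 and -2.82), Acly (-0.54 and -2.59), Xdh (-0.67 and -2.37) and Tulp4 (-1.63 and -1.46) each had 1 or 2 UMIs in the Ctrl members. Fabp5, a fatty acid carrier, was at -2.13 (-2.88 to -1.46) in RSPO3-OE, where 76.3% of the UMIs in the other CD8 T cells were in 1 cell.

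The inhibitory receptors that mark exhausted T cells had ratios on both sides of 0. Pdcd1, which encodes PD-1, was at 395 against 384 CPM in RSPO3-OE, a log2 ratio of 0.04 (-0.20 to 0.28), and at -0.10 (-0.69 to 0.46) in Ctrl. Lag3 was at -0.16 (-0.42 to 0.09) and 0.16 (-0.30 to 0.60). Havcr2, which encodes TIM-3, was at 0.66 (0.23 to 1.09) and 0.01 (-1.20 to 1.04). Cd244a was at 0.74 (0.18 to 1.29) and 0.26 (-0.65 to 1.07), while Ctla4 was at -0.37 (-0.67 to -0.08) and 0.44 (-0.27 to 1.09). Of the 10 measured in RSPO3-OE, the intervals of Havcr2 and Cd244a thus lay above 0 and those of Ctla4 and Cd160 below. Over all genes 4.94% of intervals lay above 0 and 7.61% below. At least 2-fold lower were Cd160 in both libraries and Cd200r1 in Ctrl, where the members had no UMI of it. That was 1 of 10 in RSPO3-OE and 2 of 10 in Ctrl, against 5.19% and 10.6% of all genes. These counts are too small to read a direction from. Tox, a factor of the exhausted state, was at -0.21 (-0.53 to 0.09) and -0.01 (-0.54 to 0.49). Over 10 measured inhibitory receptors the median was -0.24 in RSPO3-OE and -0.04 in Ctrl, with summed log2 ratios of -0.10 (-0.22 to 0.02) and 0.01 (-0.24 to 0.25).

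Glycolysis genes were mostly higher in members in RSPO3-OE, and the difference between the libraries was not tested. In RSPO3-OE 15 of 17 were above 0 with a median of 0.37, and 9 intervals lay above 0, against 46.1% of all genes above 0 and 4.94% of intervals. At least 2-fold higher was 1 of the 17, so the differences were small. Ldha, the lactate dehydrogenase gene, was at 0.51 (0.35 to 0.67) and Pgk1, a glycolytic kinase gene, at 0.59 (0.38 to 0.79). In Ctrl 5 of 15 were above 0 with a median of -0.07, Ldha was at -0.31 (-0.69 to 0.05), and no interval excluded 0. Actin and cytoskeleton genes had 16 of 17 above 0 in RSPO3-OE, median 0.27, and 8 of 17 in Ctrl, median -0.01. In Ctrl 43.8% of all genes were above 0. Immediate early genes were below 0 for 10 of 12 in RSPO3-OE and 10 of 10 in Ctrl, with medians of -0.32 and -0.72. Over all genes 53.9% and 56.2% were below 0. Oxidative phosphorylation genes (median 0.00 and -0.04) and heat shock genes (-0.08 and 0.01) stood near the median of all genes.

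**Figure D4:**
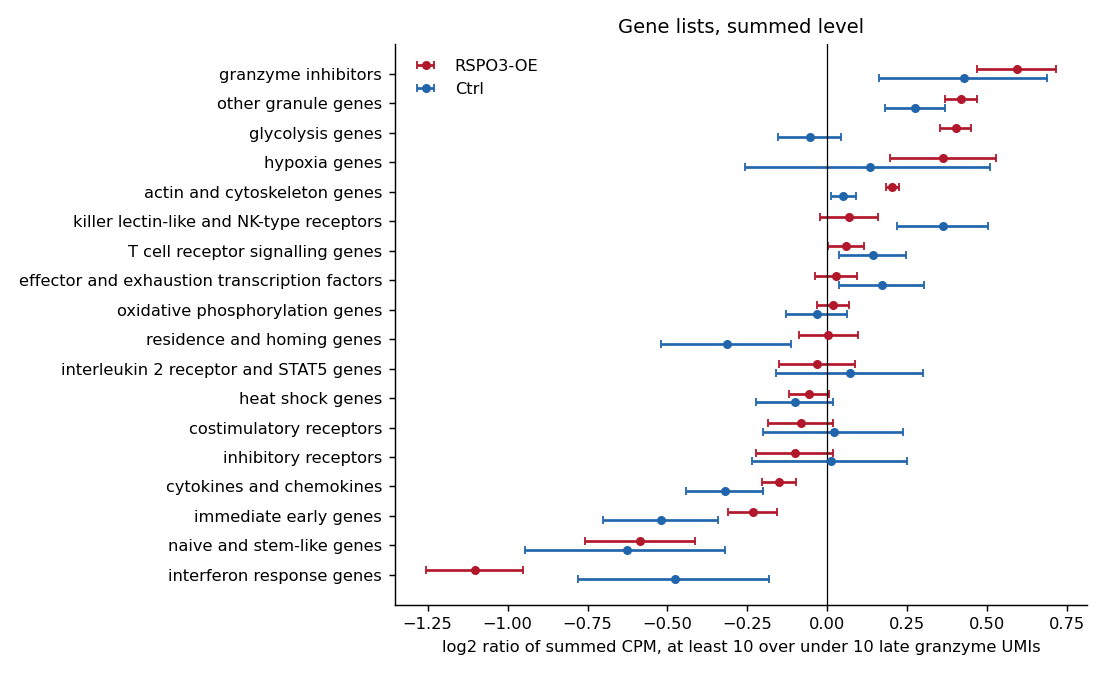
Log2 ratio of summed CPM, members over other CD8 T cells of the same library (horizontal axis), for 18 gene lists, with 95% counting intervals; points are the RSPO3-OE and Ctrl libraries. The interferon list lies lowest in RSPO3-OE at -1.10, and glycolysis genes lie at 0.40 in RSPO3-OE and -0.05 in Ctrl.

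The same genes were followed along the number of late granzyme UMIs, the quantity the rule cut at 10. In RSPO3-OE the non-dividing CD8 T cells fell into 150 cells with 0, 35 with 1 to 9, 34 with at least 10 and under 50, 22 with at least 50 and under 200, and 7 with 200 or more. Median depth over these bins was 5813, 5730, 6490, 9310 and 17735 UMIs, so the last bin held deep cells, and the part of depth in these trends was not tested. In Ctrl there were 87, 23, 11 and 4 cells in the first 4 bins and none in the last.

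Gzmc, Prf1 and Spp1 were higher in each successive bin of RSPO3-OE. Gzmc was at 7.67, 8.73, 71.5, 524 and 3245 CPM from the first bin to the last. Prf1 was at 684, 707, 1145, 1648 and 2754 CPM. Spp1 was at 388, 423, 614, 1446 and 2605 CPM. Serpinb9b and Gzmb already stood higher in the bin of 1 to 9 UMIs, which lies outside the rule. Serpinb9b was at 70.1, 262, 265, 627 and 1333 CPM and Gzmb at 876, 1183, 1347, 1924 and 2280 CPM. In Ctrl Gzmc was at 6.88, 21.2, 11.6 and 318 CPM and Prf1 at 585, 772, 1388 and 690 CPM, neither higher in each bin. The 4 Ctrl bins of Spp1 were at 377, 1253, 1341 and 2388 CPM and those of Serpinb9b at 25.8, 340, 116 and 265 CPM, so Serpinb9b was highest there just outside the rule.

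Interferon genes and Bcl2 were lower in each successive bin of RSPO3-OE. The interferon list summed to 1688, 1663, 1132, 609 and 386 CPM over the 5 bins, and Bcl2 was at 343, 314, 257, 159 and 70.2 CPM. The Ctrl bins of Bcl2 were at 561, 772, 358 and 425 CPM, with no steady course. In Ctrl the interferon sum was 1271, 842, 867 and 822 CPM, lower after the first bin and level from there. Ccl5 in RSPO3-OE was at 5272, 3265, 4377, 4124 and 930 CPM, with its lowest value in the 7 cells of the last bin. Pdcd1 had no such course, at 378, 406, 396, 440 and 307 CPM.

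**Figure D5:**
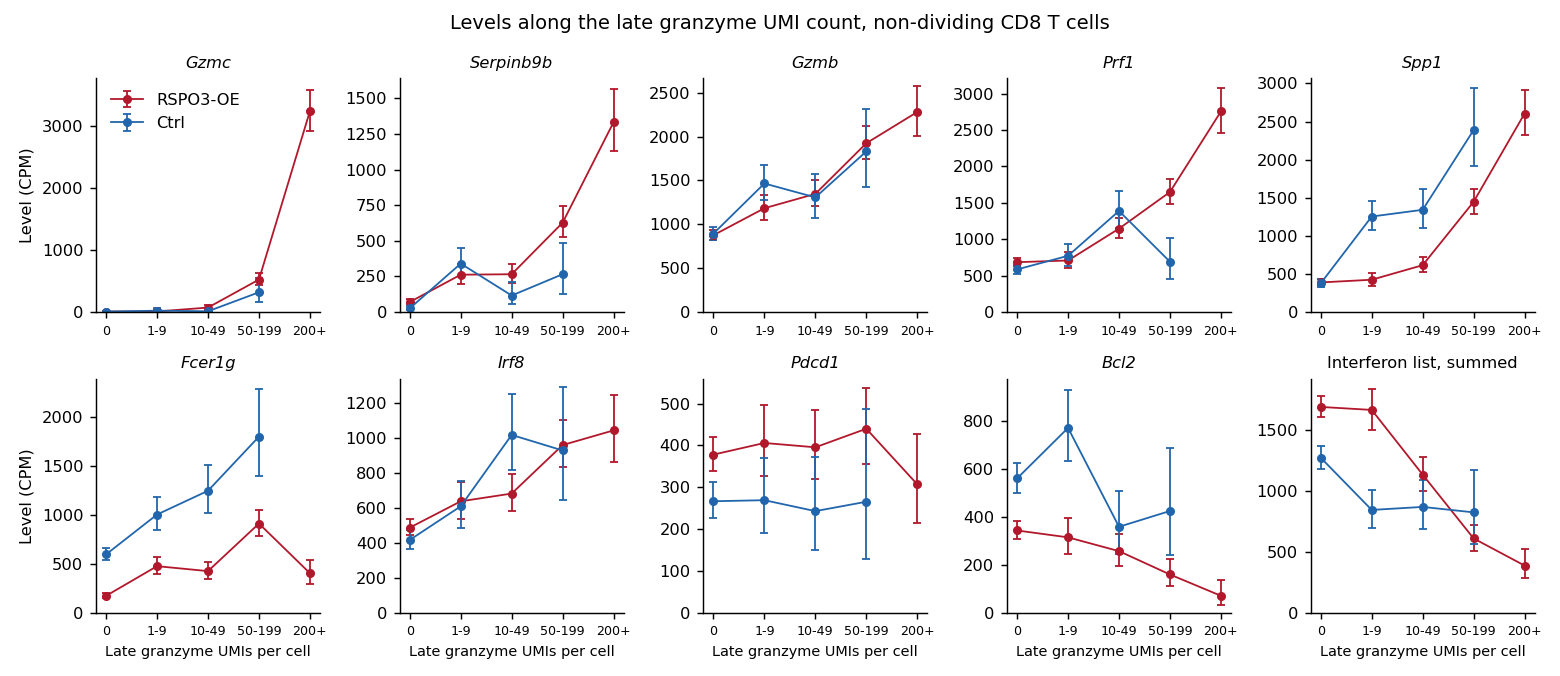
CPM of Gzmc, Serpinb9b, Gzmb, Prf1, Spp1, Fcer1g, Irf8, Pdcd1, Bcl2 and the summed interferon list (vertical axes) in non-dividing CD8 T cells binned by late granzyme UMIs (0, 1 to 9, then bins starting at 10, 50 and 200), for RSPO3-OE and Ctrl, with exact Poisson 95% intervals. In RSPO3-OE Gzmc goes from 7.67 to 3245 CPM and the interferon sum from 1688 to 386 CPM; Ctrl has 4 cells in its highest bin.

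Members of the 2 libraries were set side by side last, 63 cells against 15. Because both were chosen by the same threshold, the levels of the late granzymes above it describe the cells and not the share. Of 3762 genes with at least 20 UMIs, 11% were at least 2-fold higher and 3.83% at least 2-fold lower in RSPO3-OE members, and the median log2 ratio was 0.08. Among the other CD8 T cells of the 2 libraries the shares were 5.29% and 2.9% of 6730 genes, with a median of 0.02. These shares are not at equal depth. Members held 565272 UMIs in RSPO3-OE and 124169 in Ctrl, and the other CD8 T cells 1141518 and 722833. The part of depth in the shares was not tested. What belongs to the tumour line and what belongs to the library cannot be told apart.

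The late granzymes differed by gene. Gzmf was 1.53-fold higher in RSPO3-OE members, a log2 ratio of 0.62 (0.49 to 0.74), and Gzme 3.81-fold higher, 1.93 (1.49 to 2.40). Gzmd was 6.45-fold higher, 2.69 (2.29 to 3.12). Gzmg was 20.5-fold higher by summed UMIs with the Ctrl sum set to 3 counts, a bound of 4.36 in log2. Its counting interval began lower, at 4.05. The Gzmg UMIs came from 9 of 63 RSPO3-OE members (14.3%), with 32.1% of them in 1 cell. For the 15 Ctrl members, none with a UMI, the exact interval of that share reached 21.8%. The bound therefore counts UMIs and holds no spread between cells. Gzmf, the most abundant of the 4, had the smallest ratio, and Gzmg, the rarest, the largest bound. In the other CD8 T cells Gzmd stood at 0.19 (-1.0 to 1.47) and Gzmf at 0.07 (-0.42 to 0.56) between the libraries. Gzmc was at 3.08 (2.29 to 4.0) in members, Serpinb9b at 1.94 (1.29 to 2.67), Prf1 at 0.50 (0.24 to 0.76) and Gzmb at 0.26 (0.03 to 0.49).

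Some of the other large differences were as large in the other CD8 T cells. Hspa1b, a heat shock gene, was at 14.2 CPM in RSPO3-OE members and 258 CPM in Ctrl members, a log2 ratio of -4.19 (-5.52 to -3.04), and at -4.02 (-4.81 to -3.32) in the other CD8 T cells. Nr4a3 and Nr4a1, nuclear receptor genes induced by antigen receptor signals, were at 2.90 (1.31 to 5.2) and 2.42 (0.81 to 4.73) in members. In the other CD8 T cells they were at 2.69 (1.99 to 3.48) and 3.27 (2.35 to 4.36). Fcer1g was at -1.23 (-1.49 to -0.96) in members and -1.54 (-1.76 to -1.32) in the other CD8 T cells, lower in RSPO3-OE in both. Igflr1 (-1.89 in members, -1.14 in others) and Abcb9 (-1.31 and -0.92) were also lower in both.

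Other genes differed less, or the other way, in the other CD8 T cells. Ccl3, a chemokine gene, was at 488 against 88.6 CPM in members, a log2 ratio of 2.46 (1.60 to 3.48), and at -0.57 (-0.80 to -0.35) in the other CD8 T cells, with 81.8% of its UMIs in Ctrl members in 1 cell. Il7r, the interleukin 7 receptor gene, was at 2.90 (0.99 to 5.98) in members, from 2 UMIs in 1 Ctrl cell, and at 0.97 (0.37 to 1.61) in the others. Areg was at -2.21 (-2.74 to -1.68) and -0.03 (-0.55 to 0.50). Serpina3g, a serpin gene, was at -1.17 (-1.70 to -0.62) and -0.30 (-0.55 to -0.05). Srsf9 (2.40), Dph3 (2.36) and Arsb (2.29) were higher from 3 UMIs each in Ctrl members, and Filip1 (-1.37) and Ddost (-1.34) were lower. The differences between members and the other CD8 T cells in these ratios were not tested.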

How the data were processed

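The authors deposited raw UMI counts per gene and barcode, produced by Cell Ranger, version 3.0.1 per the submitters' processing notes and 3.1.0 per the file headers, with the mm10 genome, after the Chromium 3′ v2 kit, per the labels' protocols. Barcodes had been called as cells before deposit. Members and gene lists were chosen with earlier results of these data known. Cells were gated by UMIs as stated above, with doublets kept because none was a member. UMIs were summed per library and arm, divided by the arm's total and multiplied to CPM. Ratios carry exact binomial 95% intervals, shares Clopper-Pearson intervals and CPM exact Poisson intervals. With 1 library per group no replicate spread exists. A list gene or a called gene needed 20 UMIs over both arms. A sum of 0 was set to 3 counts for bounds. Thinning drew 2000 UMIs per cell (seed 1).

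Named genes were the 15 highest and 15 lowest means of both libraries' log2 ratios, with the same sign in both and at least 50 UMIs in the higher arm in RSPO3-OE and 10 in Ctrl, which 1212 genes met. Mitochondrial, ribosomal, T cell receptor and rule genes were left out. Between the libraries' members they were the 8 highest and 8 lowest with at least 100 CPM, 50 UMIs in RSPO3-OE or 20 in Ctrl, and 0.5 times the level of all kept cells, and up to 3 genes at each end of a list could be added. The 11 genes at least 2-fold higher in both libraries, and the genes whose sign differed between libraries, were named after their values were seen. Scripts used scanpy 1.11.5, biopython 1.88, scipy 1.17.1, numpy 2.4.6, pandas 2.3.3 and matplotlib 3.10.9 under Python 3.11.15. Ratios of members over others were tested on simulated sums of UMIs, which held no spread between cells. Genes set to a log2 ratio of -2 had a median estimate of -2.05 in RSPO3-OE but -1.50 in Ctrl. Those set to 1, -1 and 2 gave 1.00, -1.04 and 2.03 in RSPO3-OE. In Ctrl they gave 0.96, -1.01 and 2. Alternatives covered the threshold, gates, doublets, scaling, thinning and UMI minimum, of which 2 (leaving out the member with the most late granzyme UMIs, and the UMI minimum for counts of genes) were added after seeing the data.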

Additional observations from a re-analysis of the deposited data

Results flagged for a closer look

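In 3 genes of the lists the log2 ratio of members over other CD8 T cells had opposite signs in the 2 libraries with both counting intervals off 0, and the difference was not tested. Ccl3 was at 0.71 in RSPO3-OE, from 488 against 299 CPM, and at -2.33 in Ctrl, from 88.6 against 444 CPM. Of the Ctrl members' Ccl3 UMIs 81.8% were in 1 cell. Cd6, a surface receptor of T cells, was at -0.49 in RSPO3-OE, from 122 against 172 CPM, and at 1.10 in Ctrl, from 225.5 against 105 CPM. Ly6c2, a surface protein of monocytes and memory CD8 T cells, was at -0.79 in RSPO3-OE, from 504 against 872 CPM, and at 1.03 in Ctrl, from 765 against 375 CPM.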

How the results depend on the processing

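Leaving out a replicate was not possible with 1 library per group. No paired analysis was possible because each group has 1 library. The share of members, 25.4% in RSPO3-OE and 12% in Ctrl, became 18.5% and 7.2% at 20 UMIs, 11.7% and 3.2% at 50 UMIs, 30.6% and 16.8% at 5 UMIs, and 29.0% and 13.6% when at least 0.1% of a cell's UMIs were asked for. With cells thinned to 2000 UMIs and at least 2 of them late granzymes it was 29.8% and 16.0%. RSPO3-OE was higher under each of these.

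Counts of genes past 2-fold depended on the UMI minimum and on depth. In RSPO3-OE, 154 higher and 334 lower became 102 and 218 with thinned cells, 382 and 622 at 10 UMIs and 37 and 93 at 50 UMIs. In Ctrl, 161 and 468 became 82 and 218, 420 and 784, and 28 and 110, and the higher count was 105 at a threshold of 5 UMIs. Between the libraries' members, 414 and 144 became 137 and 34, 713 and 400, and 96 and 21. In both libraries, 11 and 34 became 19 and 56 at a threshold of 20 UMIs and 7 and 14 with thinned cells. The log2 ratio of summed late granzymes between members, 1.10, was 1.24 at a threshold of 5 UMIs, 0.96 at 20 UMIs, 1.3 with Lyz2 at 0, 0.96 without the member with the most late granzyme UMIs, 0.92 thinned and 0.78 as the mean of the cells' own CPM. The cause was not tested.

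Some signs changed. In RSPO3-OE, Fabp5 was at 2.67 and the median of dendritic markers at 1.43 with a threshold of 5 UMIs, and at 0.013 and 0.026 against cells with 0 late granzyme UMIs. The median of macrophage markers was 0.24 with Lyz2 at 0. In Ctrl, the cytokine median was 0.076 at a threshold of 20 UMIs, and thinning gave Serpinb9b -0.30, Cxcl10 0.55, Mitd1 1, Irf2bp2 1.29, Acly 0.65 and the granzyme inhibitor median -0.30. Between members, thinning gave Dph3 -0.49, Ddost 0.25 and the cytokine median -0.29, and the mean of the cells' own CPM gave the naive and stem-like median -0.89. Of the named genes 5 of 15 higher and 4 of 15 lower were shared when at least 20 and 5 UMIs were asked for, and 11 and 4 at 100 and 20 UMIs. With 15 Ctrl members, depth limits every Ctrl value that rests on few UMIs.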
